A study of Mus musculus with 6 samples.

Results

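The mitotic kinesins are motor proteins that work on the spindle, the chromosomes and the cleavage site of dividing cells. They were followed here as 10 genes: Kif11, Kif15, Kif4, Kif22, Kif2c, Kif18a, Cenpe, Kif20a, Kif20b and Kif23. Every probe set whose annotated symbol was exactly one of these names was taken, which gave 24 of the 45037 probe sets left on the array without its controls, for 10 of 18193 named genes. The arrays were made from C2C12 cells, a line of mouse myoblasts that stops dividing in suspension and forms myotubes when it differentiates. PRDM2, a PR/SET domain protein that binds chromatin, was knocked down by shRNA in one stable pool, and a stable pool with a GFP shRNA served as control, with 3 Affymetrix arrays for each. All 6 cultures had been held for 48 hours in methylcellulose with 20% serum to bring them to G0, the state of reversible arrest. The labels number the samples of a pool as biological replicates without naming separate transfections, so the p-values measure the spread between these samples.

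Kinesins use ATP to walk along microtubules or to take them apart at their ends. Dividing cells make the mitotic members late in the cycle, in G2 and mitosis, under promoters that are held silent in G0 and in differentiated cells. Some build the bipolar spindle, some ride on chromosome arms, some work at kinetochores, where microtubules hold the chromosomes, and some bundle the midzone between the separating chromosomes and guide cytokinesis.

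Values are the deposited intensities, on a linear scale with 1 value per probe set and array. Differences are knockdown minus control in quantile normalized log2(intensity + 16), which understates the change of dim probe sets. Most kinesin signals were dim: 12 of the 24 probe sets lay under an intensity of 16 on all 6 arrays, and 22 did so on every knockdown array. Between 55.1% and 58.2% of all probe sets on an array were below that value. Prdm2 itself, at the probe set that represents it, read 47.1 to 86.2 in the control and 29.0 to 58.0 in the knockdown without passing the test (limma adjusted p = 0.312). Array 3 of each group had a Dap poly-A spike signal of 43.1 and 42.3, against 160 to 350 on the other 4 arrays, and control array 3 had a Gapdh 5' to 3' ratio of 0.0992, against 0.704 to 1.14 elsewhere. Differences are therefore also given for arrays 1 and 2 of each group and for the pair of arrays numbered 3, where no test is possible. Markers that define differentiated muscle, summed over 5 genes, rose from 93.7 to 203 on control arrays to 4564 to 5894 on knockdown arrays, and all 5 passed the test. The share of the kinesin differences that goes with this change was not tested. In these bulk samples, fewer dividing cells and less transcript per cell cannot be told apart. The defining markers of endothelial cells summed to between 14.3 and 26.8 on every array and those of adipocytes between 8.53 and 23.2, with none of 4 and none of 2 passing by limma. Macrophage markers summed to 123 to 246 in the control and 74.2 to 125 in the knockdown, with none of 4 passing. Neuronal markers summed to 64.3 to 89.4 and 33.4 to 41.7, with 1 of 4, Tubb3, called lower. Myoblast markers were mixed, with sums of 1302 to 1608 in the control and 1430 to 1849 in the knockdown. Of these 5 genes Myf5 was called lower, Vcam1 was called higher and 3 did not pass.

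Of the 10 mitotic kinesins 3 fell in the knockdown, 0 rose and 7 did not pass the test. Those that fell were Cenpe, a kinetochore motor, and Kif23 and Kif20a, both of the midzone. Across all genes 2.19% were called lower by the same rule, which is a limma adjusted p under 0.05 over all genes with 1 probe set each. All 10 genes had a difference below 0, from -1.71 for Kif22 to -0.12 for Kif2c, with a median of -0.56 against 0.00 over all genes. In 7 of the 10 genes every knockdown array read below every control array, where 8.72% of all genes showed that separation in this direction. The 3 genes called were the same 3 without any one control array, but only Kif20a was called without knockdown array 1. Ordinary statistics without limma's moderation called 0 of the 10, with 6 lower at an unadjusted p under 0.05, an offset of 64 called 1, array weights 5 and a robust variance trend 6.

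**Figure D1:**
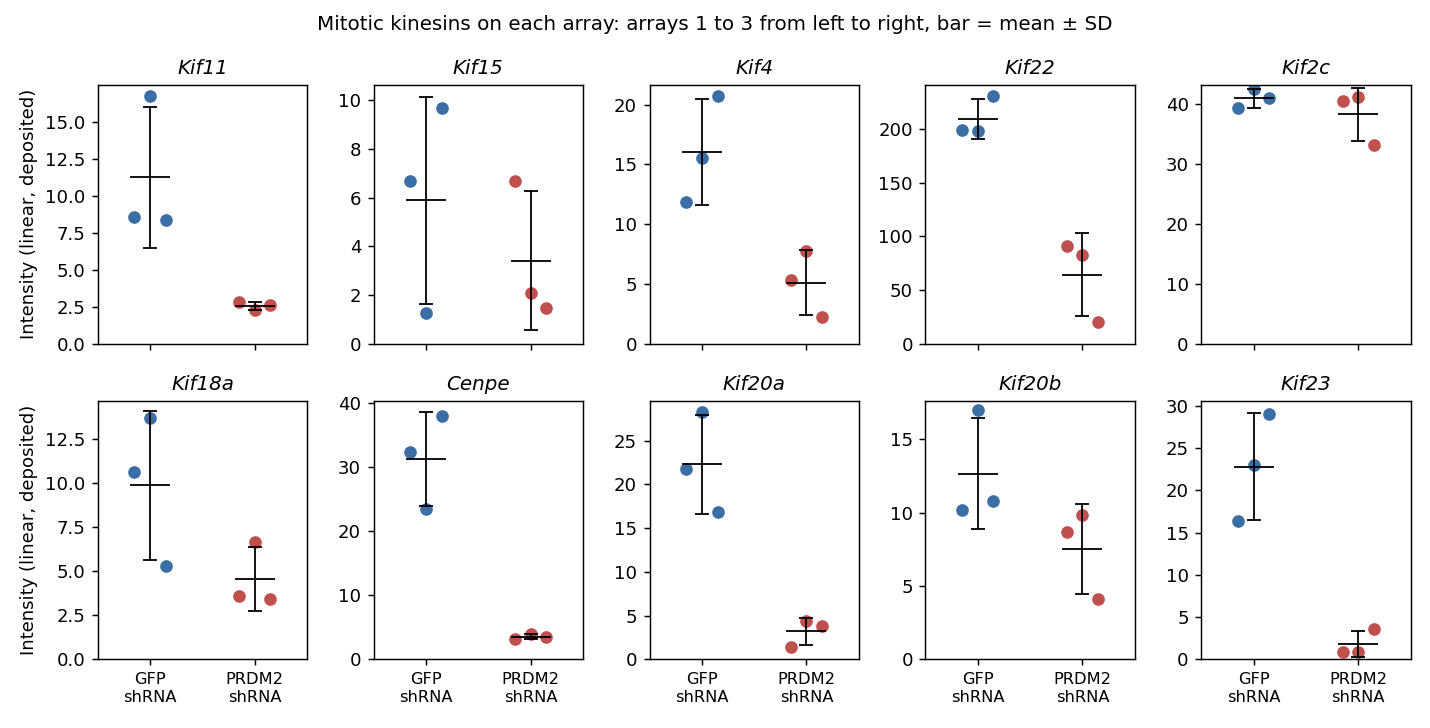
Deposited intensity (vertical axes, linear, each from 0) of the representing probe set of each mitotic kinesin on the 3 arrays with GFP shRNA and the 3 with PRDM2 shRNA; points are arrays 1 to 3 and bars are mean ± SD. The groups lie apart for 7 of the 10 genes and overlap for Kif15, Kif2c and Kif18a.

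Since a gene's call rests on the probe set with the highest mean, each of the 24 probe sets was also tested by itself over all 45037. Of these, 5 were called lower, 0 higher and 19 did not pass, where 1.01% of all probe sets were called lower. The 5 belonged to 5 genes: Cenpe, Kif23 and Kif20a, together with a second probe set of Kif22 and one of Kif2c. The difference was below 0 for 23 of 24 probe sets, with a median of -0.28 against -0.01 over all probe sets. In 13 of the 24, all knockdown values lay below all control values, as they did in 7.5% of all probe sets. The exact two-sided permutation p was 0.1 for 14 of the 24, these 13 and 1 of Kif23 that lay apart in the other direction. That is the smallest p that 3 arrays against 3 can give, so it restates the separation of the groups. The limma calls depended on single arrays: 0 probe sets were called without control array 1 or without knockdown array 1 (10 and 8 were lower at an unadjusted p under 0.05), 1 without knockdown array 2 or 3, and 3 without control array 2. With the arrays of lower spike signal left out, 0 were called, and 9 were lower at an unadjusted p under 0.05.

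**Figure D2:**
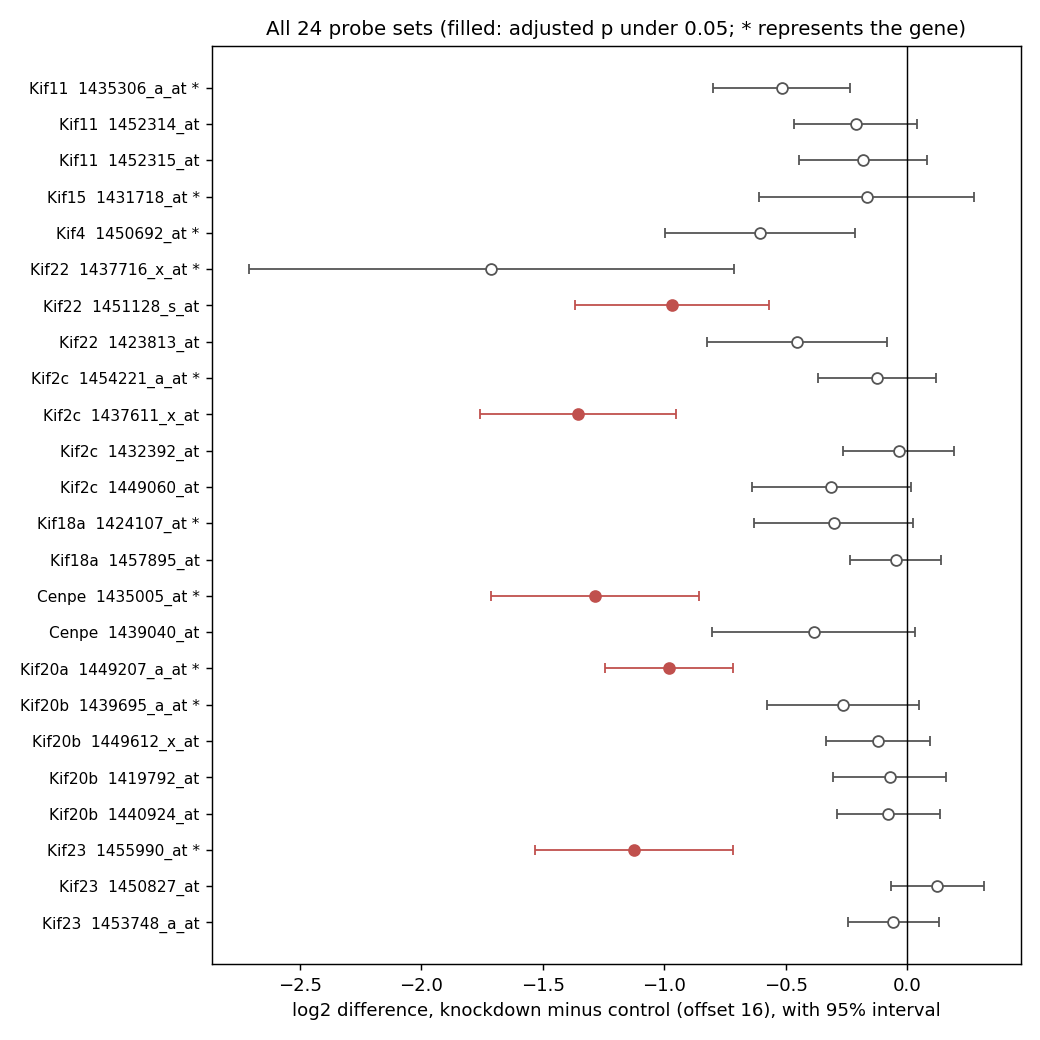
Difference between knockdown and control (horizontal axis, log2 with an offset of 16) for all 24 probe sets of the mitotic kinesins, with 95% intervals from limma; filled red points passed at an adjusted p under 0.05 and an asterisk marks the probe set that represents the gene. The 5 filled points lie between -1.35 and -0.97, and 1 probe set of Kif23 lies above 0.

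Promoters of genes expressed in G2 and mitosis often carry a CHR, a hexamer bound by the MuvB complex, and a CCAAT box bound by NF-Y. Because the members were lower together, their RefSeq promoters on GRCm38.p6 were searched for both. Entries ran from 250 bases before to 50 bases after the annotated start, and those of 9 of the 10 genes were used. Kif20a was left out when the entries were selected, so its promoter was not searched and is not in the counts below. The other lists and the set of all promoters had no such exclusion. The stretches shown run from 90 bases before the start to the base just before it, 5' to 3' on the gene's strand, for the 6 genes with a match there. Capitals mark CCAAT, read as ATTGG on the other strand, or TTTGAA, read as TTCAAA on the other strand, and no match of one overlaps a match of the other.
Kif11, chr19:37376292-37376381, + strand: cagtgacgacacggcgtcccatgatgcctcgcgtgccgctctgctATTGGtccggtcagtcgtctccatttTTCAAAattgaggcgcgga
Kif15, chr9:122950991-122951080, + strand: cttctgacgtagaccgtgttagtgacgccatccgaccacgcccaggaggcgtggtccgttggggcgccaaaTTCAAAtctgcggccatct
Kif4, chrX:100625975-100626064, + strand: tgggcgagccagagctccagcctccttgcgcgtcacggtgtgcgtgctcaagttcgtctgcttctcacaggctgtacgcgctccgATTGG
Kif22, chr7:127042421-127042510, - strand: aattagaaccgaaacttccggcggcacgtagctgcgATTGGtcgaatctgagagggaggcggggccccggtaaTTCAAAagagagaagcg
Cenpe, chr3:135212473-135212562, + strand: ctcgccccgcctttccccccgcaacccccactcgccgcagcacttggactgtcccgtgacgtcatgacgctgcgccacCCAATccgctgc
Kif23, chr9:61946800-61946889, - strand: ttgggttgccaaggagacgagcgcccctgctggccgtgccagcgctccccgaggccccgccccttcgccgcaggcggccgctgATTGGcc

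In Kif11 the CCAAT box began 45 bases and the hexamer 19 bases before the annotated start, and in Kif22 they began 54 and 17 bases before it. Kif4, Kif20b and Kif23 had the hexamer just past the start, at bases 20, 8 and 3, and Kif20b had a further copy at base 14. Within 100 bases before to 50 after the start, the hexamer on either strand was in 6 of the 9 member promoters and in 8.01% of 32851 RefSeq promoters. The CCAAT box was there in 5 of 9, against 23.4%, and both motifs were in 4 of 9, against 1.93%. The same window held the hexamer in 19 of 28 promoters of the spindle partners described further on and in 3 of 22 promoters of kinesins with other roles. In mitotic kinesins outside the members it held the hexamer in 3 of 7 promoters, the CCAAT box in 5 and both in 3. Kif18a had neither motif in its 300 bases, and the only match of Kif2c lay 103 bases before the start. GC content was 48.0% to 65.0% in the 9 promoters, with a median of 52.7% over all promoters. By gene, Kif11, Kif15, Kif4, Kif22, Kif2c and Kif20b carry the hexamer in their 300 bases and were not called, while Kif23 carries it and was called. Kif22 and Kif2c did each have a probe set that was called when tested by itself. Cenpe was called and has the CCAAT box alone. Kif20a, the other gene called, was not searched, so motif and call cannot be set side by side for it. A match is a description of letters and no evidence of binding.

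**Figure D3:**
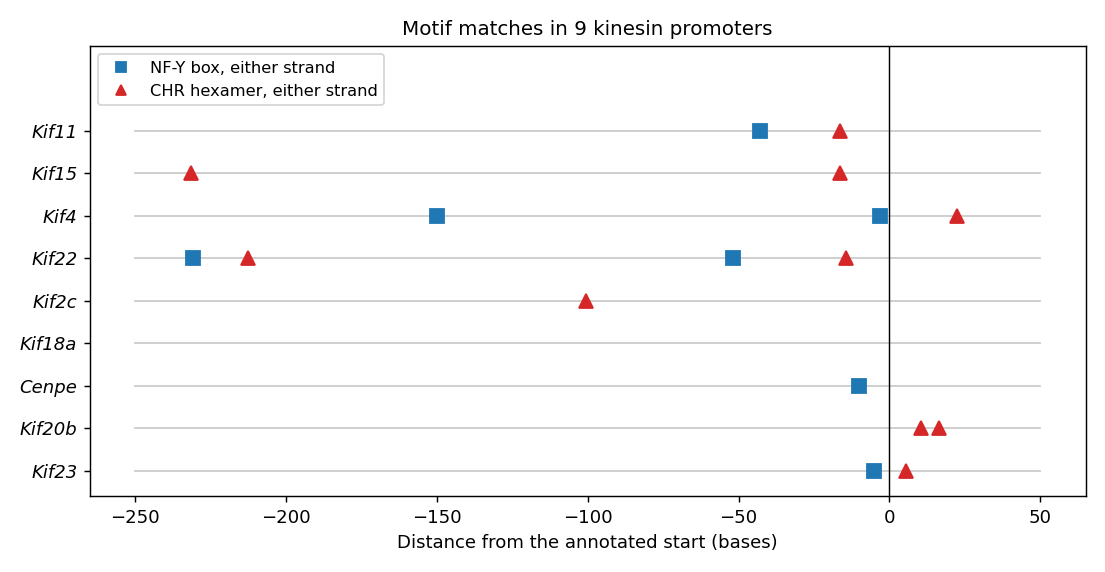
Position of each motif match (horizontal axis, bases from the annotated start) in the 9 kinesin promoters searched, without Kif20a; squares are the NF-Y box and triangles the CHR hexamer, on either strand, and grey lines span the 300 bases searched. Matches of the hexamer crowd within about 20 bases of the start in 6 promoters.

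Among the spindle builders, neither passed. Kif11, the tetrameric kinesin-5 that pushes antiparallel microtubules apart to separate the poles, gave, in array order, control intensities of 8.57, 16.7 and 8.35 and knockdown intensities of 2.81, 2.28 and 2.63. All 3 knockdown values lay below the control values, at 22.9% of the control mean. Kif11 differed by -0.52 (SE 0.123, limma adjusted p = 0.0708), and with an offset of 1, which compresses dim values less, it was -1.67 and passed (limma adjusted p = 0.00929). The other Kif11 probe sets differed by -0.21 and -0.18 without passing, and the groups lay apart in the first and overlapped in the second. Kif15, a kinesin-12 that can keep a bipolar spindle when Kif11 is blocked, read 6.69, 1.28 and 9.70 in the control and 6.69, 2.07 and 1.47 in the knockdown. Its groups overlapped, with control array 2 the lowest of all 6. The difference of -0.17 (95% interval -0.60 to 0.27, limma adjusted p = 0.793) was 0.04 on arrays 1 and 2 and -0.58 on the arrays numbered 3.

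Both chromokinesins, which bind chromosome arms, were lower on every knockdown array. Kif4, which works on chromosome arms and moves to the midzone with Prc1, read 11.9, 15.5 and 20.7 in the control and 5.36, 7.73 and 2.25 in the knockdown. The groups did not overlap and the knockdown mean was 31.9% of the control, but the difference of -0.61 (SE 0.164) did not pass (limma adjusted p = 0.107). Its size differed between arrays, at -0.36 on arrays 1 and 2 and -1.10 on the arrays numbered 3.

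Kif22, known as Kid, which pushes chromosomes toward the spindle equator, is represented by a probe set with the suffix _x_at, for probes that may match other transcripts. It read 199, 199 and 231 on the control arrays and 91.0, 82.4 and 19.8 on the knockdown arrays. Knockdown array 3 stood far below the other knockdown arrays, and the difference of -1.71 (SE 0.402) missed the threshold (limma adjusted p = 0.0681). Without knockdown array 3 it was -1.22 and passed (limma adjusted p = 0.0306), with a range of adjusted p from 0.013 to 0.289 over all alternatives. A second probe set, whose suffix _s_at marks probes shared between transcripts, read 18.6, 22.8 and 31.2 against 3.99, 3.90 and 5.63. Those knockdown values lay close together, and the probe set was called lower (difference -0.97, SE 0.165, limma adjusted p = 0.0416 over all probe sets). It passed in 9 of 18 alternatives. The remaining one differed by -0.45 without passing, again with the groups apart. So the test passed at 1 of the 3 Kif22 probe sets, with every knockdown value below every control value at all 3. As a gene Kif22 passed in 6 of 19 alternatives, among them the mean of its probe sets (difference -1.04, limma adjusted p = 0.0276).

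At the kinetochore, Cenpe had a clear fall. CENP-E is the kinesin-7 that carries chromosomes along microtubules to the spindle equator. Its representing probe set read 32.3, 23.4 and 37.9 in the control and 3.18, 3.99 and 3.49 in the knockdown. The lowest control array was above every knockdown array, and the knockdown mean was 11.4% of the control, 3.55 ± 0.409 against 31.2 ± 7.33 (SD, n = 3 each). Cenpe fell by 1.29 on the log2 scale (SE 0.177, limma adjusted p = 0.00976). It passed in 15 of 19 alternatives, with an adjusted p between 0.000518 and 0.103, and did not pass without knockdown array 1 (limma adjusted p = 0.0525) or in the 4 arrays of higher spike signal (limma adjusted p = 0.0645). The other Cenpe probe set was dimmer, at 8.61 ± 6.79 and 2.09 ± 0.823 (SD, n = 3 each), and differed by -0.38 without passing.

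Kif18a, a kinesin-8 that damps the swings of chromosomes at the equator, read 10.6, 13.7 and 5.31 in the control and 3.61, 6.68 and 3.41 in the knockdown. Control array 3 lay within the knockdown values, so the groups overlapped. The difference was -0.30 (95% interval -0.63 to 0.03, limma adjusted p = 0.378), and the gene's other probe set stayed at or below 1.54 on all arrays.

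The 4 probe sets of Kif2c did not tell one story. Kif2c, known as MCAK, is a kinesin-13 that depolymerises microtubule ends and helps to correct wrong attachments. Its representing probe set read 39.4, 42.6 and 41.0 in the control and 40.5, 41.2 and 33.2 in the knockdown. The groups overlapped, and the difference was -0.12 (95% interval -0.38 to 0.14, limma adjusted p = 0.719). A probe set of like brightness on the control arrays, also an _x_at set, read 39.3, 30.8 and 42.3 and then 7.65, 4.69 and 3.34. Here the groups were far apart, at 14.0% of the control mean, and the probe set was called lower (difference -1.35, SE 0.167, limma adjusted p = 0.0144 over all probe sets). It passed in 12 of 18 alternatives, with differences from -2.69 to -0.57. The other pair differed by -0.31, with the groups apart, and by -0.04, with them overlapping. With the mean of its probe sets Kif2c passed, at -0.46 (limma adjusted p = 0.0278), so the call on this gene depends on the probe set chosen. Where these probe sets lie on the transcripts was not analysed here.

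Of the 3 midzone and cytokinesis kinesins, 2 fell. Kif20a, known as MKLP2, brings the chromosomal passenger complex to the midzone. Its only probe set read 21.7, 28.2 and 16.9 in the control and 1.43, 4.35 and 3.86 in the knockdown. The groups were well apart, with means of 22.3 ± 5.69 and 3.21 ± 1.56 (SD, n = 3 each), and the knockdown stood at 14.4% of the control. Kif20a fell by 0.98 on the log2 scale (SE 0.116, limma adjusted p = 0.00525). As a gene it passed in 18 of 19 alternatives, more than any other member, and missed only with ordinary statistics (adjusted p = 0.0531). Tested over all probe sets, its probe set passed in 14 of 18.

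Kif23, known as MKLP1, forms the centralspindlin complex with Racgap1 and bundles midzone microtubules. It read 16.4, 23.0 and 29.1 in the control and 0.922, 0.892 and 3.65 in the knockdown. No array overlapped. The knockdown mean was 7.98% of the control mean, a percentage that rests on knockdown values at the bottom of the scale. Kif23 fell by 1.12 (SE 0.17, limma adjusted p = 0.0134) and passed in 14 of 19 alternatives. It did not pass without knockdown array 1 (limma adjusted p = 0.069), without knockdown array 2 (limma adjusted p = 0.0628) or with the mean of its probe sets (limma adjusted p = 0.0934). The other misses were with an offset of 64 (limma adjusted p = 0.0612) and with ordinary statistics (adjusted p = 0.117). Its other probe sets were near the bottom of the scale. One read 1.20, 1.11 and 1.77 and then 2.63, 2.28 and 3.92, the only member probe set with every knockdown value above every control value (difference 0.12, limma adjusted p = 0.685). The other differed by -0.06.

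Kif20b, known as MPP1, acts late in cytokinesis. It read 10.2, 17.0 and 10.8 in the control and 8.68, 9.85 and 4.08 in the knockdown, apart by a narrow margin. The difference of -0.26 did not pass (95% interval -0.58 to 0.06, limma adjusted p = 0.439), and its 3 other probe sets, with values up to 4.88, differed by -0.12, -0.08 and -0.07.

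In the order of their differences, the genes ran from Kif22 through Cenpe, Kif23, Kif20a, Kif4, Kif11, Kif18a, Kif20b and Kif15 to Kif2c. The widest gaps between neighbours in that order, between Kif22 and Cenpe and between Kif20a and Kif4, were 0.43 and 0.37, with standard errors of 0.44 and 0.201. These standard errors join those of the neighbouring genes as if independent, although both genes were read on the same arrays. They therefore do not decide which neighbours differ. By this measure gaps exceeded their standard error between Kif20a and Kif4 and between Kif11 and Kif18a, and the other gaps did not. The gap between Kif11 and Kif18a was 0.22 with a standard error of 0.186. The order also depends on the offset. With an offset of 1 Kif23 led with -3.20, followed by Cenpe with -2.82, Kif20a with -2.51 and Kif22 with -2.03.

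Differences were below 0 for most members in both sets of arrays. The median of the 10 genes was -0.48 on arrays 1 and 2 and -0.68 between the arrays numbered 3, and 19 of the 24 probe sets were below 0 in both. Cenpe differed by -1.12 and -1.62, Kif23 by -1.03 and -1.32 and Kif20a by -1.08 and -0.79. Kif2c, at its representing probe set, and Kif15 were at 0.00 and 0.04 on arrays 1 and 2. Control array 3, with its low Gapdh ratio, gave the highest control value for 5 of the 10 genes, and leaving it out kept the same 3 genes called. Relative to the control mean, the average of the 10 genes lay between -0.07 and 0.11 on the control arrays and between -0.86 and -0.62 on the knockdown arrays.

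**Figure D4:**
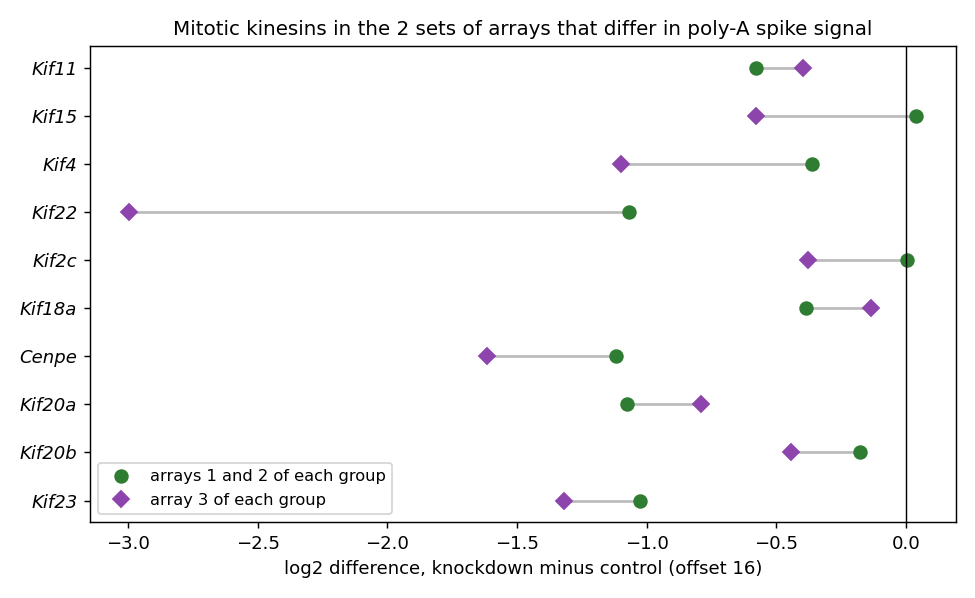
Difference between knockdown and control (horizontal axis, log2 with an offset of 16) of each mitotic kinesin, computed from arrays 1 and 2 of each group (circles) and from array 3 of each group (diamonds), which differ in poly-A spike signal. Cenpe, Kif20a, Kif23 and Kif22 lie at or below -0.79 in both, and Kif22 has the widest gap between its points.

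Many genes whose products bind, recruit or phosphorylate the members also fell. Of 27 measured spindle partners 19 fell, 0 rose and 8 did not pass, with a median difference of -1.20. As background, 2.19% of all genes were called lower and 2.96% higher. This list was chosen with the fall of mitosis genes known, so it is no independent support for the direction. The partners called numbered 12 without knockdown array 3 and 7 with ordinary statistics. Among 9 genes named for their role beside the members, a choice made after their values were seen, Racgap1, the partner of Kif23 in centralspindlin, fell by 1.44 (SE 0.161, limma adjusted p = 0.00426), and Ect2, the exchange factor that centralspindlin brings to the cell equator, fell by 1.29. Plk1, the kinase that binds Kif20a at the midzone, fell by 1.01, from 39.3 ± 10.6 to 11.3 ± 2.74 (SD, n = 3 each). At the kinetochore, Bub1b, the checkpoint kinase BubR1 that binds CENP-E, fell by 1.59, and the outer kinetochore gene Cenpf fell by 1.83. Ndc80, which anchors microtubule ends there, read 10.2 to 12.1 in the control and 4.95 to 7.44 in the knockdown and did not pass (difference -0.30, limma adjusted p = 0.175).

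The largest falls among the partners called were in other genes. Birc5, the passenger protein survivin, fell by 2.60, and Anln, the cytokinesis scaffold anillin, fell by 2.09. Bub1, a checkpoint kinase, fell by 1.87. Cdk1, the mitotic kinase that phosphorylates Kif11 and Kif22, fell by 1.20, from 201 ± 12.7 to 84.8 ± 17.8 (SD, n = 3 each). Tpx2, which binds Kif11 and Kif15 on the spindle, fell by 1.11 (limma adjusted p = 0.0183). It passed in 11 of 19 alternatives, and its misses included leaving out control array 1 or 3 or knockdown array 2 or 3. Prc1, the midzone bundler that recruits Kif4, read 48.7, 121 and 58.2 in the control and 37.7, 29.6 and 31.2 in the knockdown. It did not pass (difference -0.91, limma adjusted p = 0.115). Its groups were apart, with control array 2 far above the other control arrays, and without that array it did not pass either (difference -0.63, limma adjusted p = 0.095). Prc1 passed in 2 of 19 alternatives. These were the mean of its probe sets (difference -1.22, limma adjusted p = 0.00982) and the filter on low values (limma adjusted p = 0.0493).

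Mitotic kinesins outside the 10 did not pass. Kif18b, a kinesin-8 that shortens astral microtubules, came closest, at 13.3, 17.6 and 14.2 in the control and 5.19, 3.24 and 8.04 in the knockdown (difference -0.52, limma adjusted p = 0.0579). The minus-end motor Kifc1 differed by -0.29, with groups that did not overlap. Kif2a, a kinesin-13 close to Kif2c that is also made in resting cells, read 111 to 149 in the control and 116 to 146 in the knockdown, with a difference of -0.06 that was 0.03 without normalization and 0.04 with median scaling. Kif14, Kif2b and Kifc5b stayed under an intensity of 5 on every array, with differences of 0.06, -0.09 and -0.10. The median of these 6 genes was -0.10.

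Kinesins of transport, cilia and other roles had a median difference of -0.02 over 25 measured genes. Of these 1 fell and 1 rose, where 2.19% of all genes were called lower and 2.96% higher. Kif21b, a processive motor that also limits microtubule growth, read 123, 156 and 137 in the control and 63.5, 36.1 and 37.9 in the knockdown, a fall of 1.42 (SE 0.187, limma adjusted p = 0.00813). It passed in 17 of 19 alternatives, but not in the 4 arrays of higher spike signal (limma adjusted p = 0.102) or with ordinary statistics (adjusted p = 0.0984). Kif5c, a conventional kinesin heavy chain of neurons, read 18.2, 15.1 and 17.0 and then 48.1, 52.5 and 34.0. It rose by 0.86 (SE 0.141, limma adjusted p = 0.0184) and passed in 13 of 19 alternatives. It did not pass without control array 1 (limma adjusted p = 0.065) or knockdown array 1 or 2, or with the mean of its 4 probe sets, where it differed by 0.24. The other misses were with same-numbered arrays taken as blocks (limma adjusted p = 0.0581) and with ordinary statistics (adjusted p = 0.117). Among the 4 measured light chains and adaptors none passed by the limma test, with a median of -0.41. Kifap3, the adaptor of kinesin-2, differed by -0.53 (limma adjusted p = 0.108), and Klc1, a light chain, by 0.01 (limma adjusted p = 0.988).

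Tubulins form the microtubules on which these motors move. Of 13 measured tubulin genes 2 fell and none rose, with a median of -0.11, where 2.19% of all genes were called lower. Tubb3, a beta tubulin used as a neuronal marker, fell by 0.96, from 47.1 ± 16.3 to 16.4 ± 1.60, and Tuba1a, an alpha tubulin, fell by 0.57, from 2580 ± 109 to 1792 ± 216 (SD, n = 3 each). Tuba1a kept its limma call in 6 of 19 alternatives and Tubb3 in 12. None of the 20 measured factors described at promoters of G2 and mitosis genes passed the limma test, and their median was -0.05. The pair with the highest mean intensity, Rbbp4, a histone-binding subunit of MuvB, and Rb1, the retinoblastoma protein, differed by -0.07 and -0.06. Foxm1, a forkhead activator of mitotic genes, averaged 12.5 ± 3.08 with GFP shRNA and 8.93 ± 1.70 with PRDM2 shRNA (SD, n = 3 each), with overlapping groups (difference -0.18, limma adjusted p = 0.629).

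**Figure D5:**
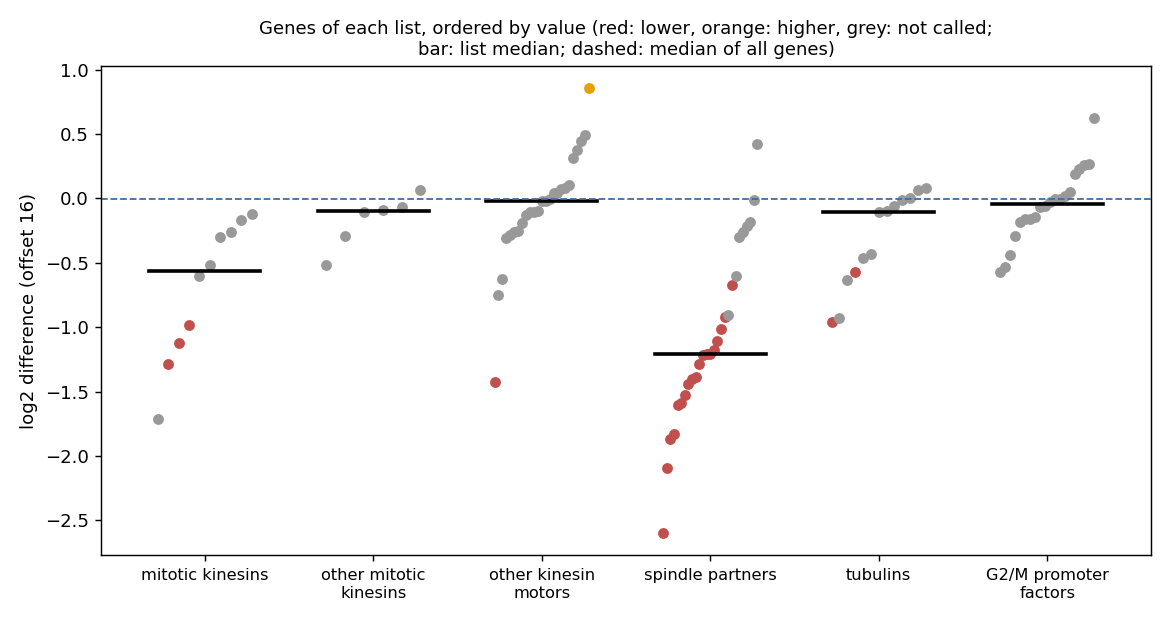
Difference between knockdown and control (vertical axis, log2 with an offset of 16) for the genes of 6 lists, ordered by value within each list; red points were called lower, the orange point higher, black bars are list medians and the dashed line is the median of all genes. Medians are -0.56 for the mitotic kinesins, -1.20 for the spindle partners and between -0.11 and -0.02 for the others.

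Genes outside the family with the most similar profile were looked up by the root mean square distance, over the 6 arrays, from the average of the 10 kinesins, among genes above the median mean level. The closest 5 were Mcf2l, Fam102a, Mt1, Lmnb1 and Tdrd7, with distances of 0.065 to 0.086 on the log2 scale. Each differed by between -0.73 and -0.68, which follows from their choice by likeness on the same 6 arrays and is given as a description. Lmnb1, the nuclear lamina protein lamin B1, read 55.8, 58.6 and 56.9 in the control and 29.6, 30.4 and 29.5 in the knockdown, with little spread in either group.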

How the data were processed

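The authors deposited 1 linear intensity per probe set for 6 Affymetrix arrays, and per the submitters' processing notes GCOS and PLIER were used. For background correction and normalization, no method was named in the sources used here. There were 45101 probe sets, 64 of them controls, and 0 columns of other samples. Gene symbols came from the platform annotation: 34945 probe sets had 1 symbol, 932 several and 9160 none.

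Intensities were analysed as quantile normalized log2(intensity + 16) in R 4.3.3 with limma 3.58.1 (lmFit and eBayes, Benjamini-Hochberg adjustment over all genes or probe sets, threshold 0.05). A gene was represented by its probe set of highest mean. The script was checked on simulated data with differences planted only in brighter genes, so the check does not cover differences at dim probe sets. Means ± SD are of deposited intensities. The members and lists were chosen with earlier results of these data known. Named genes are the members, the other mitotic kinesins, of each further list of motor, spindle, tubulin and promoter genes the 4 passing genes of largest difference (or, where fewer than 2 passed, the 2 of highest mean intensity), Prdm2 and the 5 closest profiles; 9 genes were added for their role after their values were seen. Same-numbered arrays deviated together with correlations of 0.342, 0.00765 and 0.116, so the numbers were not taken to pair the arrays. The 19 alternatives covered normalization, offset, filter, variance model, weights, blocks, spike signal, Gapdh ratio, probe set choice and leaving out each array. The number of arrays limits the precision.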

Additional observations from a re-analysis of the deposited data

How the results depend on the processing

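Of 600 recomputed differences of member genes and probe sets, 529 kept their direction and side of the threshold, 45 lost the call, 15 gained it and 11 changed sign. The number of member genes called lower was 1 with an offset of 64, 6 with a robust variance trend, 0 with ordinary statistics and 5 with array weights, and 1 to 4 with 1 array left out. Member probe sets called numbered 2, 7, 0 and 5 under the same settings, 0 in the arrays of higher spike signal and 0 to 5 with 1 array left out. With the replicate block 3 member probe sets and 3 member genes were called, though whether the numbers pair the arrays is not known. Spindle partners called numbered 7 with ordinary statistics and 12 to 17 with 1 array left out. All genes called numbered 206 with ordinary statistics, 1618 with array weights, 358 in the arrays of higher spike signal and 444 to 815 with 1 array left out, against 937. Sign changes touched no called value. In the arrays of higher spike signal Kif2c differed by 0.0036, Kif15 by 0.0399, Kif14 by -0.0029, the Kif2c probe set at -0.04 by 0.0744 and the Kif20b probe set at -0.07 by 0.00031. Kif2a differed by 0.0268 without normalization, 0.0446 with median scaling and 0.00145 when probe sets were averaged. That Kif2c probe set differed by 0.00024 with array weights and 0.00465 with the Gapdh ratio as a covariate. With 1 array left out, the differences ran from -0.000497 to 0.098 for Kif14, from -0.16 to 0.0177 for Kif2a, from -0.0721 to 0.0239 for that Kif2c probe set and from -0.129 to 0.00327 for the Kif20b probe set at -0.07. The counts of 0 came beside 6 member genes and 8 member probe sets with ordinary statistics, and 9 probe sets in the arrays of higher spike signal, lower at an unadjusted p under 0.05. No probe set count exists for the mean of probe sets.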
